A study of Mus musculus with 6 samples.

Results

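The subunits of the mitochondrial respiratory chain that are encoded in the nucleus were followed in LSK cells, the lineage-negative, Sca-1+ and c-Kit+ fraction of bone marrow that holds haematopoietic stem and early progenitor cells. Members were taken by their gene symbols, which are those of the Nduf (a, b, c, s and v), Sdh, Uqcr, Cox4 to Cox8 and Atp5 families, and 84 of the 24063 gene symbols in the count files matched. They comprise 37 genes of complex I, 4 of complex II, 8 of complex III, 18 of complex IV and 17 of complex V. Subunits encoded by the mitochondrial genome were not analysed here.

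RNA sequencing compared 3 libraries labelled Asxl2-/- with 3 labelled wild type, from mice of the C57BL/6 strain. All 6 libraries were made after pIpC treatment, which mimics viral RNA and switches on the interferon-responsive Mx1 promoter, and the titles give every mouse the Mx1-cre transgene, so Cre and pIpC were shared by both groups. In the Asxl2-/- mice Cre removes exon 11 of a floxed Asxl2 gene, a member of the Polycomb-associated ASXL family, and the Mx1 promoter is active in many tissues that answer interferon, not only in LSK cells. The labels give no age for the mice and do not say how many animals stand behind a library, so p-values measure the spread between these 6 libraries.

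The respiratory chain passes electrons from NADH (through complex I) and succinate (through complex II) by way of ubiquinone to complex III, from there by cytochrome c to complex IV, and finally to oxygen, while complex V, the ATP synthase, uses the proton gradient so formed to make ATP. Complexes I, III, IV and V contain subunits from both the nuclear and the mitochondrial genome, and complex II from the nuclear genome only. Haematopoietic stem cells are known for a low reliance on oxidative phosphorylation, which becomes more important as progenitors differentiate.

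The deposited counts were of 2 kinds. Asxl2-/- replicates 1 and 3 and wild-type replicate 2 had 1 count per transcript (gene-count files), and Asxl2-/- replicate 2 and wild-type replicates 1 and 3 had 1 count per exon, summed here (exon-count files). Totals were 25528540 to 29136012 counts in the gene-count files and 53147729 to 55032075 in the exon-count files, where a spliced read can be counted in several exons. For the members the ratio of the mean level in exon-count files to that in gene-count files had a median of 1.47, with 1.30 for the 21 genes of 2 to 3 exons and 1.55 for the 11 genes of 10 to 20 exons. Levels are therefore compared between groups only within a kind of file or with the file kind as a covariate. Exon 11 held 0.583% of the Asxl2 counts in Asxl2-/- replicate 2 (Wilson 95% interval 0.404 to 0.841, counting error only) against 10.3% and 11.99% in wild-type replicates 1 and 3, and the gene-count files do not resolve it. Xist had 49540 to 66689 counts in the Asxl2-/- libraries and 590 to 3194 in the wild-type ones, and 4 Y-linked genes had at most 2 and at least 1026 counts, so the groups also differ in sex and the 2 cannot be told apart.

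Across the chain, most members were lower in Asxl2-/- cells by a similar small amount, and 1 of them passed the test. Of the 84 members, 80 had enough counts to be tested, and 74 of these had a log2 fold change below 0, against 49.9% of all 14145 genes tested. The median log2 fold change of the 80 members was -0.29 (a ratio of 0.815), beside 0.00 for all genes tested, and the central part of the distribution was narrow, with quartiles of -0.34 and -0.19. By the quasi-likelihood test of edgeR with Benjamini-Hochberg adjustment over all genes, 1 member, Ndufv1, passed an adjusted p of 0.05 and was lower, against 0.304% of all genes called lower and 2.34% called in either direction. At an unadjusted p under 0.05, 43 members were lower and none higher, against 12.6% of all genes lower. After removal of the fitted effect of the file kind, 51 of 80 members were lower in each Asxl2-/- library than in each wild-type library, against 20.8% of all genes. Among short, well-expressed genes these shares were higher than among all genes, and their counts are given below. The typical standard error of a member was 0.107 on the log2 scale and the largest was 0.621, for Cox6a2.

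**Figure D1:**
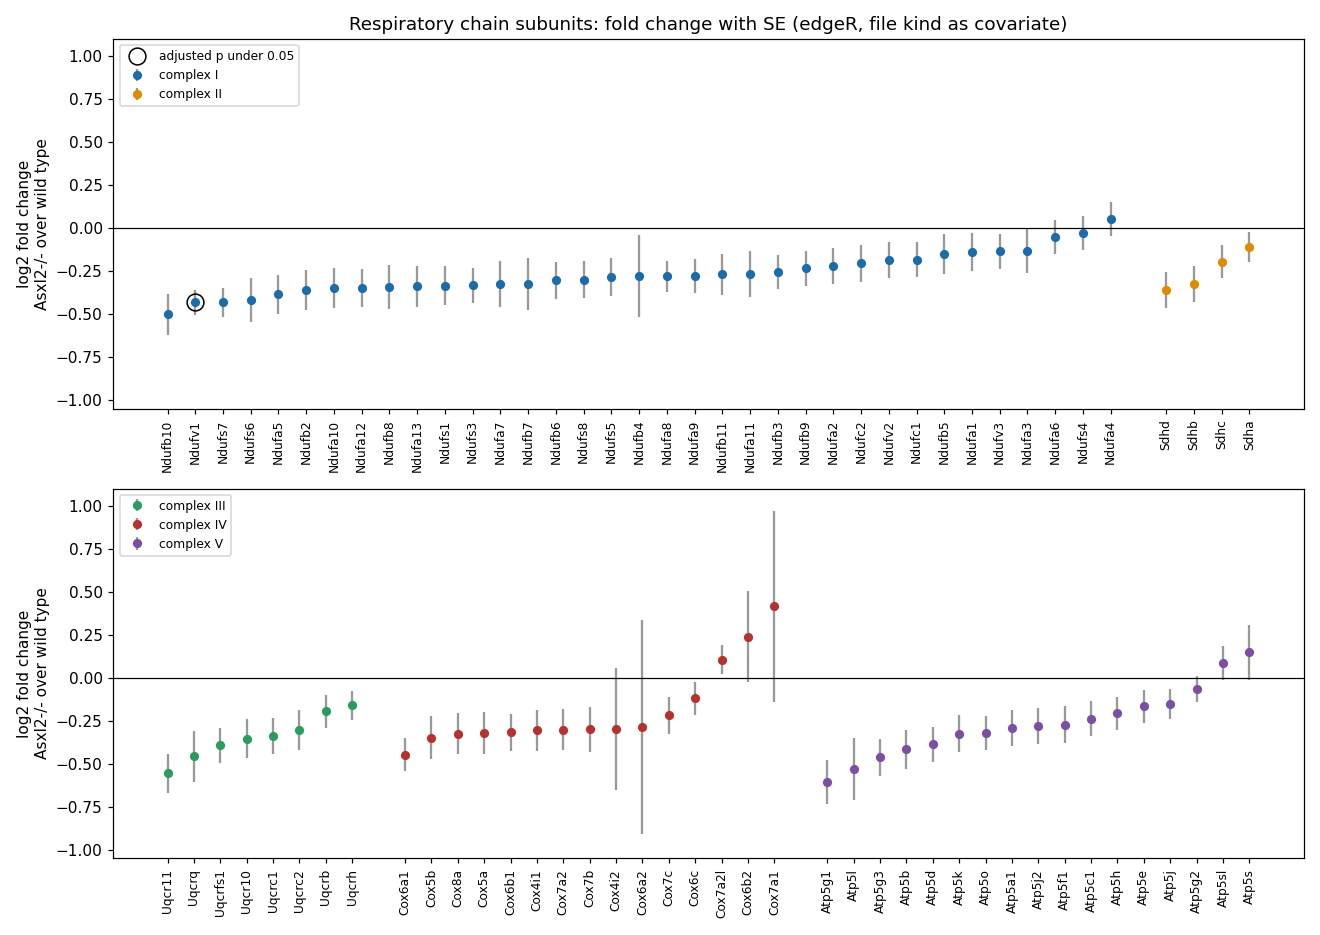
Log2 fold change of the tested members, Asxl2-/- over wild type, 1 of them not drawn, with its standard error as a bar, grouped by complex and ordered by size. All points but 6 lie below 0 and the ring marks Ndufv1, the 1 gene past the adjusted threshold; the widest bars belong to the scarcely counted complex IV isoforms Cox4i2, Cox6a2 and Cox7a1.

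The size of the difference depended on the libraries compared. Together the tested members took 1.04% and 1.02% of the counts in Asxl2-/- replicates 1 and 3 and 1.247% in wild-type replicate 2, all gene-count files. In the exon-count files the share was 1.34% in Asxl2-/- replicate 2, 1.43% in wild-type replicate 1 and 1.48% in wild-type replicate 3. In both kinds of file the Asxl2-/- shares were thus the lowest. The median log2 fold change of the members was -0.44 when only gene-count files were compared and -0.14 when only exon-count files were, each with a single library in 1 group and no test. Of the 80 members, 72 were lower in both Asxl2-/- libraries than in the wild-type library among the gene-count files (42.2% of all genes), 55 were lower in the Asxl2-/- library than in both wild-type libraries among the exon-count files (38.0% of all genes), and 52 met both conditions (23.3% of all genes). Wild-type replicate 1 lay nearest to the Asxl2-/- libraries: relative to the wild-type mean its members had a median of -0.14 log2 units, against 0.09 and 0.05 in wild-type replicates 2 and 3 and -0.33, -0.18 and -0.34 in Asxl2-/- replicates 1 to 3. Without wild-type replicate 1 the median was -0.35 and 18 members were called lower (3.90% of all genes), and without wild-type replicate 2, the only wild-type gene-count file, it was -0.14 and none was called. Ndufv1 kept its call without wild-type replicate 1 (edgeR adjusted p = 0.0393) and lost it without any other single library (adjusted p = 0.0844 to 0.218). DESeq2 called 28 members lower in the same 6 libraries (7.97% of all genes), with 11, 2, 5, 3 and 7 in complexes I to V, and limma-voom called 1, in complex I.

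**Figure D2:**
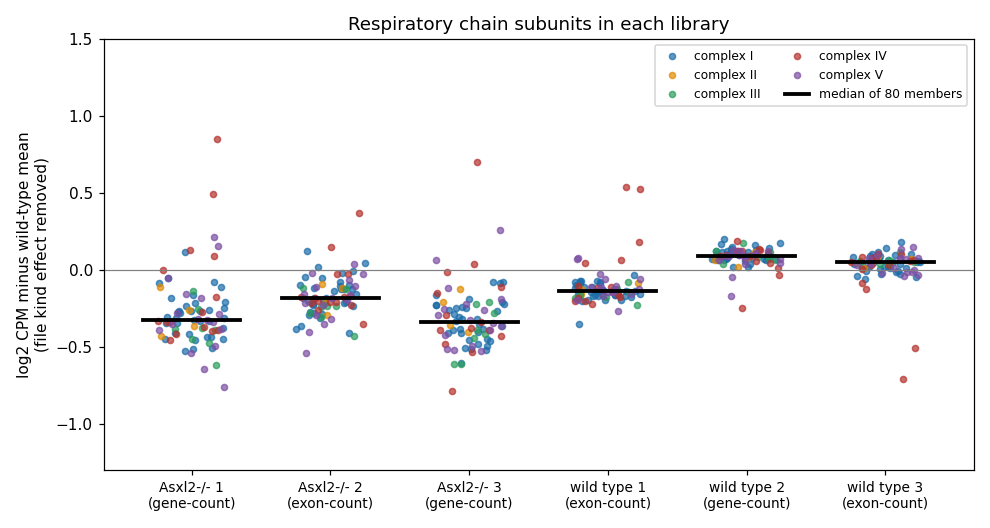
Log2 CPM of each of the 80 tested members in each library minus its wild-type mean, after removal of the fitted file kind effect. Points are genes coloured by complex and bars are medians. Cox6a2 in Asxl2-/- replicate 3, at -1.38, lies below the end of the axis. The medians run from -0.34 in Asxl2-/- replicate 3 to 0.09 in wild-type replicate 2, with wild-type replicate 1 at -0.14 and Asxl2-/- replicate 2 at -0.18.

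**Figure D3:**
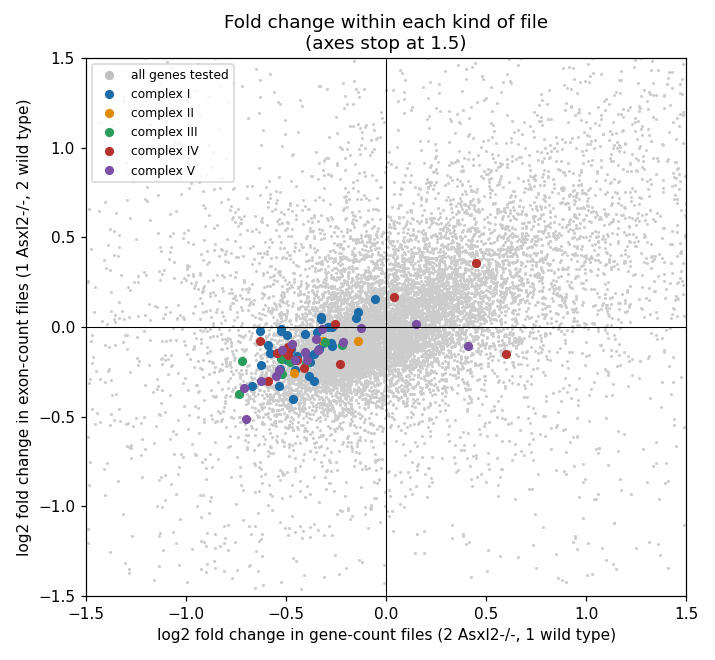
Log2 fold change within the exon-count files against that within the gene-count files for all genes tested (grey) and the members (coloured by complex), with axes ending at 1.5 in either direction. Most members lie in the lower left quadrant, and farther from 0 along the gene-count axis (median -0.44) than along the exon-count axis (median -0.14).

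The members are short transcripts, and transcript length moved with the fold change. Their median length was 686.5 bases among the 80 tested, against 2753 bases for all genes tested. The 571 tested genes with a mean log2 CPM over 4 and a transcript under 1000 bases had a median log2 fold change of -0.19 (-0.32 by gene-count and -0.08 by exon-count files), and all 8372 genes over that level had -0.07. Of the 571 genes, 475 were below 0, 166 were lower at an unadjusted p under 0.05 and 2 were called lower by edgeR. In 237 of them each Asxl2-/- library lay below each wild-type library after removal of the file kind effect. With the trend of each library on transcript length removed, an alternative chosen after seeing the data, the median of the short, well-expressed genes was -0.03 and that of the members was -0.15, with 65 of 80 below 0 and none called. With the trend on GC content removed, it was -0.25 with 72 below 0. Within the chain the fold change differed little between transcripts of few and many exons, the median being -0.29 for genes of 2 to 3 exons (median length 533 bases) and -0.30 for genes of 10 to 20 exons (1800 bases). The part of length in the members' difference was not tested beyond this.

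For the member with the smallest p-value in each complex, the 250 bases upstream of the RefSeq start are shown, because the motifs of several factors are known from the promoters of respiratory genes. Sequences are from RefSeq (GRCm38.p6, the same build as mm10), on the strand of the gene, which is the minus strand in all 5, and capitals mark matches on either strand to GCATGCGC (the NRF1 motif), CCGGAAG (ETS factors such as GABP), AANATGGCG (YY1) or AAGGTCA (oestrogen-related receptors). The windows are chr19:4012756-4013005 for Ndufv1, chr9:50603850-50604099 for Sdhd, chr10:80406822-80407071 for Uqcr11, chr5:115348959-115349208 for Cox6a1 and chr11:96075632-96075881 for Atp5g1.
Ndufv1: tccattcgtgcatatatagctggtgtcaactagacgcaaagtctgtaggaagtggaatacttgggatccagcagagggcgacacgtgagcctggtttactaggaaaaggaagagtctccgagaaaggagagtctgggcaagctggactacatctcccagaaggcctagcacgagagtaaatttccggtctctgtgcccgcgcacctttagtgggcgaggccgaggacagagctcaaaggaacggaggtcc
Sdhd: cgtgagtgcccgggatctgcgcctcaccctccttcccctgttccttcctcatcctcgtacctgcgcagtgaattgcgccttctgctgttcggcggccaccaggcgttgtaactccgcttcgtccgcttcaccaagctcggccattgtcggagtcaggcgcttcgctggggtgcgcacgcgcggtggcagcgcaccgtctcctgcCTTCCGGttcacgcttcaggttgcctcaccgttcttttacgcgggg
Uqcr11: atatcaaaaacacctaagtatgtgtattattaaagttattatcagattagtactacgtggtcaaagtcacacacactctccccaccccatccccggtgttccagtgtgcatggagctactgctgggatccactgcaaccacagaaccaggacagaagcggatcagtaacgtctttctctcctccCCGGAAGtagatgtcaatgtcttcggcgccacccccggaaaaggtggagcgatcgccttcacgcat
Cox6a1: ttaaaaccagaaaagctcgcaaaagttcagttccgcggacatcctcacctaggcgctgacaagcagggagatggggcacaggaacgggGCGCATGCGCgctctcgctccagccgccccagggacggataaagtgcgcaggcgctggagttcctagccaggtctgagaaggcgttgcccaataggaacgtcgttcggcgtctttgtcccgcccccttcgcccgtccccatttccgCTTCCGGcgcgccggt
Atp5g1: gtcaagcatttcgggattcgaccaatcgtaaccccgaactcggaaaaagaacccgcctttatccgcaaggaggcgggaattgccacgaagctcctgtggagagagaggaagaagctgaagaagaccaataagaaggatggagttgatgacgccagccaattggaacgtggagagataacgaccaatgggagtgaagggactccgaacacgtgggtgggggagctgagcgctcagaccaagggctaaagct
Cox6a1 carried NRF1 matches starting 162 and 160 bases before the start, which overlap as 1 palindrome, and an ETS match at 16 bases. Sdhd had an ETS match at 46 bases and Uqcr11 at 66 bases, while none of these letters occurred in the windows of Ndufv1 and Atp5g1.

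Among the 67 tested members matched to an upstream sequence, 8 (11.9%) held the NRF1 letters, against 4.39% of the 11047 tested genes with a sequence. The ETS letters were in 11 members (16.4%, against 13.7%), those of oestrogen-related receptors in 5 (7.46%, against 2.87%) and those of YY1 in 3 (4.48%, against 2.07%). Of 68 tested genes of mitochondrial ribosomal proteins with a sequence, 8 (11.8%) held the NRF1 letters and 17 (25%) the ETS letters. Those of oestrogen-related receptors were in 3 of the 68 (4.41%) and those of YY1 in 2 (2.94%). The median log2 fold change was -0.30 both for the 8 members with the NRF1 letters and for the 59 without, and -0.32 for the 11 with the ETS letters against -0.28 for the 56 without. It was -0.36 for the 5 with the letters of oestrogen-related receptors against -0.30 for the 62 without, and -0.27 for the 3 with those of YY1 against -0.30 for the 64 without, and none of these differences was tested. A match describes letters only and shows no binding. Tested members without an entry included Ndufa2, Ndufb9, Ndufs1, Sdhc, Uqcrb, Uqcrc2, Uqcrq, Cox4i1, Cox4i2, Cox6a2, Cox6c and Atp5a1.

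In complex I, the NADH dehydrogenase that oxidises NADH, 35 of 36 tested members had a log2 fold change below 0, with a median of -0.28 (-0.40 in the gene-count and -0.12 in the exon-count files), 18 were lower at an unadjusted p under 0.05 (12.6% of all genes), and 1 was called. That gene was Ndufv1 (NM_133666, chromosome 19, 4007499 to 4012755 on mm10, 10 exons), which encodes the subunit that binds NADH and FMN. Its level was 104 and 103 CPM in Asxl2-/- replicates 1 and 3 and 142 CPM in wild-type replicate 2, and 149 CPM in Asxl2-/- replicate 2 against 194 and 200 CPM in wild-type replicates 1 and 3. Asxl2-/- lay below wild type in both kinds of file by similar amounts, the log2 fold change being -0.46 for gene-count and -0.40 for exon-count files. With the file kind removed, Asxl2-/- cells averaged 6.95 ± 0.020 log2 CPM (SD, n = 3) and wild-type cells 7.38 ± 0.030 (SD, n = 3), which edgeR fitted as -0.43 on the log2 scale (SE 0.074, adjusted p = 0.0478).

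Ndufs7, which carries the last iron-sulphur cluster before ubiquinone, had a close fold change of -0.43 (SE 0.0853, edgeR adjusted p = 0.0596). Its CPM was 53.7 and 52.4 against 76.9 for gene-count and 101 against 123 and 131 for exon-count files, so the groups did not overlap in either. Ndufb10, an accessory subunit of the membrane arm, was at 65.7 and 61.4 against 101 CPM and at 96.4 against 110 and 133 CPM, and its log2 fold change was -0.50 (SE 0.121; edgeR, adjusted p = 0.0779). Ndufa4, first described in complex I and now placed in complex IV, was the exception in the list, at 214 and 186 against 207 CPM and 332 against 288 and 309 CPM. Its log2 fold change was 0.05 (SE 0.101, edgeR adjusted p = 0.770), and its sign turned to -0.13 without the file-kind covariate. Ndufs4 (-0.03) and Ndufa6 (-0.05) were likewise near 0, both named after their values were seen.

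The 4 subunits of complex II, succinate dehydrogenase, which is also an enzyme of the Krebs cycle, were all below 0 with a median of -0.26. Of these, 2 were lower at an unadjusted p under 0.05 (12.6% of all genes), and none was called by edgeR. Sdhd, a membrane anchor, was at 158 and 166 against 223 CPM in the gene-count files and at 163 against 180 and 213 CPM in the exon-count files. Both kinds of file placed Asxl2-/- below wild type, and the log2 fold change of Sdhd was -0.36 (SE 0.103; edgeR, adjusted p = 0.102). The iron-sulphur subunit Sdhb had -0.33 (SE 0.104), the other anchor Sdhc had -0.20 (SE 0.0951) and the flavoprotein Sdha had -0.11 (SE 0.0869).

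Complex III, the cytochrome bc1 complex, had the lowest median, -0.35, with 8 of 8 below 0, 6 lower at an unadjusted p under 0.05 (12.6% of all genes), and 7 whose groups did not overlap (20.8% of all genes). None passed the adjusted threshold in edgeR. Uqcr11, a small accessory subunit, was at 45.8 and 45.9 against 76.5 CPM in the gene-count files and 74.2 against 89.5 and 103 CPM in the exon-count files. The fitted log2 difference was -0.55 (SE 0.113, edgeR adjusted p = 0.0643), and 2 near-identical copies of its coding sequence in the genome make its counts uncertain. Uqcrfs1, the Rieske iron-sulphur protein, was at 100.3 and 103 against 146 CPM and at 83.0 against 92.8 and 107 CPM, also without overlap, and its log2 fold change was -0.39 (SE 0.101; edgeR, adjusted p = 0.0870). The core protein Uqcrc1 had -0.34 (SE 0.105), while the hinge protein Uqcrh, the most abundant per kilobase, had -0.16 (SE 0.0837).

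Complex IV, cytochrome c oxidase, is built with alternative isoforms of several subunits, and the isoforms separated by level. Cox4i1, Cox6a1, Cox6b1, Cox7a2 and Cox8a, the forms used in most tissues, were at 421, 338, 374, 163 and 403 CPM per kilobase in wild-type replicate 2. The lung and hypoxia isoform Cox4i2 and the heart and muscle isoforms Cox6a2 and Cox7a1 were at 2.15, 2.37 and 0.569 CPM per kilobase. Cox8b, Cox8c and Cox7b2, forms of muscle or testis, had 0 counts in all 6 libraries, and Ndufa4l2, a hypoxia-induced relative of Ndufa4, had 0 to 3 counts. These 4 were the members not tested. Cox6b2, a testis isoform, was higher than these at 39.7 CPM per kilobase.

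Of the 15 members of complex IV tested, 12 were below 0, with a median log2 fold change of -0.30. At an unadjusted p under 0.05, 7 were lower (12.6% of all genes), and none was called by edgeR. Cox6a1 was at 123 and 117 against 180 CPM in the gene-count files and 175 against 208 and 224 CPM in the exon-count files. The groups did not overlap, and the log2 fold change was -0.45 (SE 0.0977, edgeR adjusted p = 0.0693). The other ubiquitous forms were close to each other, Cox4i1 at -0.31 (SE 0.118), Cox6b1 at -0.32 (SE 0.107), Cox7a2 at -0.30 (SE 0.118) and Cox8a at -0.32 (SE 0.117). The 3 above 0 were Cox7a2l (0.10, SE 0.0844), a relative of Cox7a2 that acts in supercomplex assembly, Cox6b2 (0.24, SE 0.263) and Cox7a1 (0.42, SE 0.555). Cox6b2 was at 27.6 and 44.9 against 23.2 CPM in the gene-count files and 39.3 against 45.4 and 41.9 CPM in the exon-count files, so its direction differed between them.

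**Figure D4:**
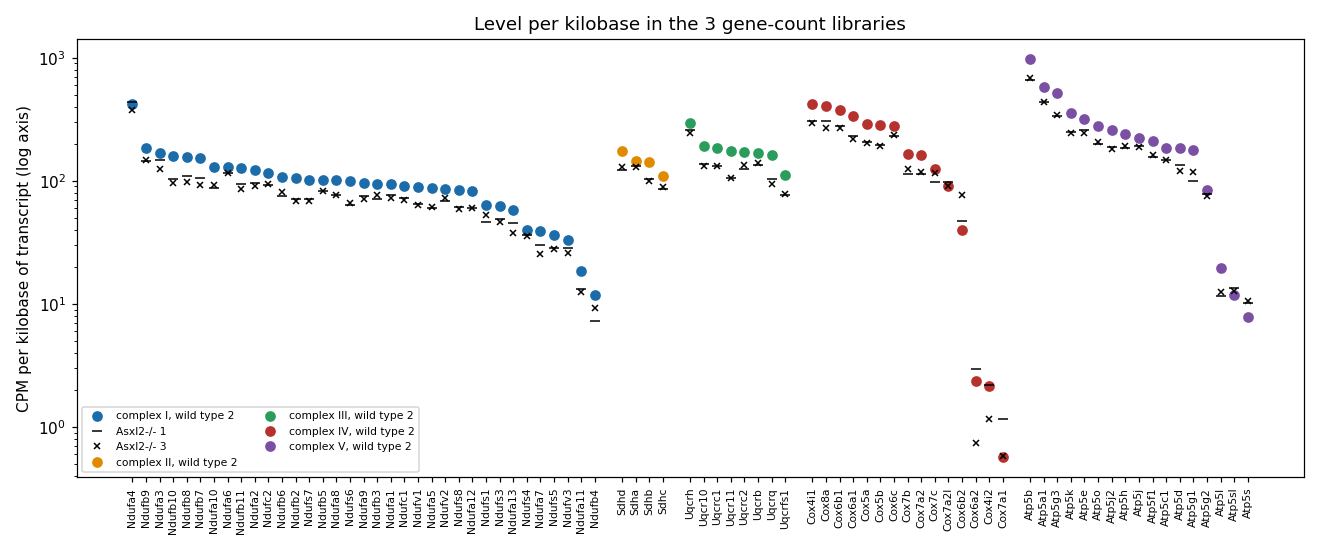
Level of the tested members in the 3 gene-count libraries, 1 of them not drawn, as CPM per kilobase of transcript on a log axis, ordered by wild-type replicate 2 within each complex (coloured points), with Asxl2-/- replicate 1 as dashes and replicate 3 as crosses. Atp5b is highest at 980, and Cox6a2, Cox4i2 and Cox7a1 lie at 0.569 to 2.37, far under the median of 127.

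Complex V had 15 of 17 members below 0, a median log2 fold change of -0.28, 10 lower at an unadjusted p under 0.05 (12.6% of all genes) and 13 whose groups did not overlap (20.8% of all genes); none was called by edgeR. It also held the most abundant members per kilobase in wild-type replicate 2, led by the catalytic beta subunit Atp5b at 980 CPM per kilobase. Atp5b was at 1228 and 1287 against 1842 CPM in the gene-count files and 1772 against 1965 and 2337 CPM in the exon-count files, and its log2 fold change was -0.42 (SE 0.114; edgeR, adjusted p = 0.0969). The 5 subunits of the F1 head (Atp5a1, Atp5b, Atp5c1, Atp5d and Atp5e), the part that makes ATP, lay between -0.42 and -0.17 and none overlapped between groups.

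The genes Atp5g1, Atp5g2 and Atp5g3 encode the same mature c subunit of the rotor ring with different import sequences, and their values differed. Atp5g1 had the lowest log2 fold change of all members, -0.61 (SE 0.129, edgeR adjusted p = 0.0674), from 80.8 and 95.7 against 143 CPM and 151 against 192 and 242 CPM. Atp5g3 had -0.46 (SE 0.109, edgeR adjusted p = 0.0763), from 226 and 233 against 354 CPM and 342 against 394 and 449 CPM. Asxl2-/- lay below wild type without overlap for both. Atp5g2 was at 50.8 and 48.7 against 54.3 CPM and 90.4 against 90.3 and 91.3 CPM, a log2 fold change of -0.07 (SE 0.078), which turned to 0.03 with scaling by library size only. The difference between these genes was not tested, and Atp5g1 has 1 and Atp5g2 has 3 near-identical copies in the genome. The 2 members above 0, named after their values were seen, were Atp5s (0.15, SE 0.158), a coupling factor, and Atp5sl (0.08, SE 0.0985), a relative of it. Both were counted in complex V by their symbols alone.

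In all, 19 tested members have at least 1 near-identical copy elsewhere in the genome, among them Atp5l with 8 and Ndufb4 with 2, both at 100% identity over the coding sequence. These were among the lowest in level, at 19.8 and 11.9 CPM per kilobase in wild-type replicate 2 against a median of 127. The libraries are unstranded, and 95.1% of the exon bases of Ndufs5 overlap another gene, so its reads cannot be assigned with certainty; the next highest overlap was 27.5%, in Ndufa13. Of the members, 3 lie on the X chromosome (Ndufa1, Ndufb11 and Cox7b), with log2 fold changes of -0.14, -0.27 and -0.30, and without X and Y the median of the members was -0.30.

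Genes that work with the chain had medians below 0 as well, and edgeR called none in any of these lists. The list of electron carriers was mostly made of genes of ubiquinone synthesis (Coq and Pdss). That of Krebs cycle enzymes also held the pyruvate dehydrogenase genes Pdha1, Pdhb and Dlat and the pyruvate carboxylase gene Pcx. DESeq2 called 8 of 43 assembly factors, 4 of 14 electron carriers, 6 of 18 Krebs cycle enzymes and 3 of 19 regulators lower (7.97% of all genes), and the counts at an unadjusted p under 0.05 were 13, 4, 9 and 3 lower (12.6% of all genes). Of the assembly factors, 40 were below 0 with a median log2 fold change of -0.18. The lists of electron carriers (13 of 14, median -0.19) and Krebs cycle enzymes (15 of 18, median -0.26) were similar. Cycs, which encodes cytochrome c, had -0.59 (SE 0.160, edgeR adjusted p = 0.0943) and Cyc1, the cytochrome c1 of complex III whose symbol lies outside the rule, had -0.53 (SE 0.123, edgeR adjusted p = 0.0756). Cs, citrate synthase, the entry enzyme of the Krebs cycle, had -0.49 (SE 0.137, edgeR adjusted p = 0.0974), and Mdh2, malate dehydrogenase, had -0.42 (SE 0.103, edgeR adjusted p = 0.0811). Among 19 regulators of mitochondrial biogenesis, 13 were below 0 with a median of -0.14; Esrra, an oestrogen-related receptor, had -0.37 (SE 0.119) and Pprc1, a coactivator of the PGC-1 family, had -0.40 (SE 0.115), and Polrmt, the mitochondrial RNA polymerase, had -0.25 (SE 0.0854). Gabpb1, a subunit of the ETS factor GABP named after its values were seen, had 0.32 (SE 0.115; edgeR, adjusted p = 0.142) and was above wild type in both kinds of file.

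The proteins of the mitochondrial ribosome, which makes the subunits encoded by mitochondrial DNA, were as far below 0 as the respiratory chain. Of 77 tested, 76 had a log2 fold change below 0, with a median of -0.32 (-0.42 in the gene-count and -0.22 in the exon-count files, and -0.20 with the length trend removed), and 49 were lower at an unadjusted p under 0.05 (12.6% of all genes). None was called by edgeR or limma-voom, while DESeq2 called 32 lower (7.97% of all genes) and edgeR called 24 lower without wild-type replicate 1 (3.90% of all genes). Cytosolic ribosomal proteins, of nearly the same transcript length as the members (median 693.5 bases), had a median of -0.10, and 0.07 with the length trend removed. Their 84 tested genes held 10 lower at an unadjusted p under 0.05, none called by edgeR and 9 called lower by DESeq2. The median of this list was also above 0, at 0.0031, with scaling by library size only, which moved the median of all genes to 0.0985. The medians of the respiratory chain and the mitochondrial ribosome stayed below 0 in both settings. The difference between these lists was not tested.

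**Figure D5:**
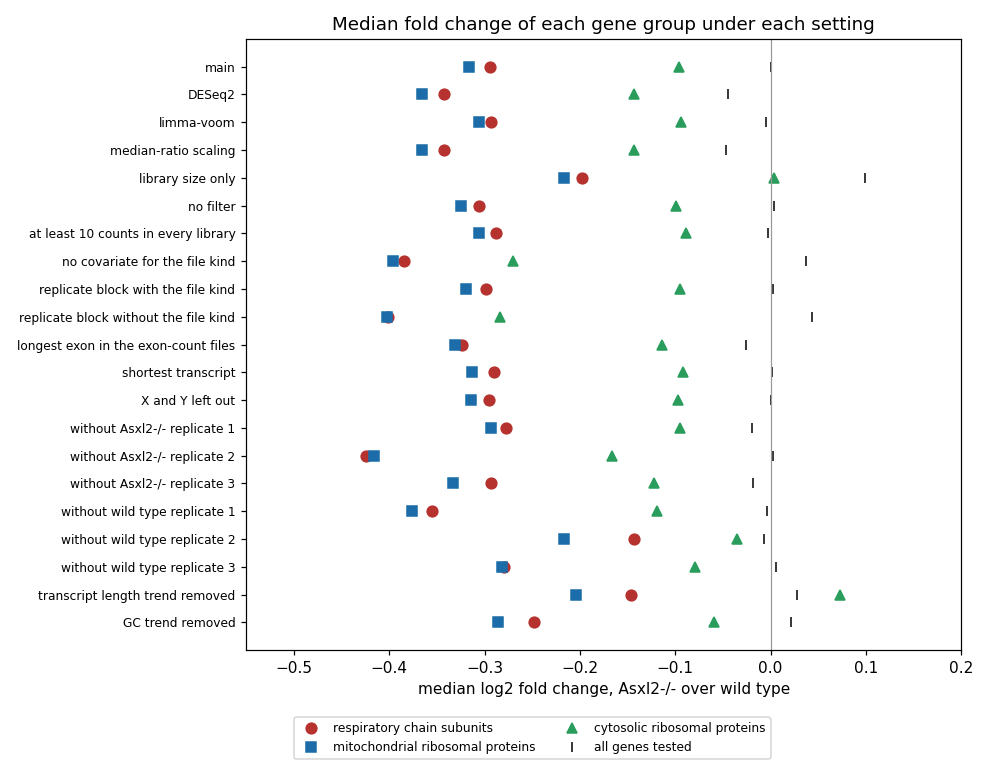
Median log2 fold change of the respiratory chain members, mitochondrial ribosomal proteins, cytosolic ribosomal proteins and all genes tested under each setting of the processing. The members' median stays below 0 throughout, from -0.42 without Asxl2-/- replicate 2 to -0.14 without wild-type replicate 2.

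Markers of other cell types also differed between the groups. In bulk LSK cells, fewer cells of a type and less RNA per cell cannot be told apart. Summed levels of each marker list are given first for the gene-count files (Asxl2-/- replicates 1 and 3 against wild-type replicate 2) and then for the exon-count files (Asxl2-/- replicate 2 against wild-type replicates 1 and 3). Of 12 erythroid markers, 10 were below 0 with a median log2 fold change of -0.97, and 7 were lower at an unadjusted p under 0.05 (12.6% of all genes). EdgeR called none of the erythroid markers, limma-voom called 1 lower (0.396% of all genes) and DESeq2 called 5 lower (7.97% of all genes). The erythroid markers summed to 884 and 1693 against 2319 CPM and to 1139 against 2565 and 3529 CPM, below wild type in both kinds of file. In contrast, 5 of 8 megakaryocyte and 7 of 8 B-lymphoid markers were called higher by edgeR, against 2.04% of all genes. Megakaryocyte markers summed to 412 and 346 against 173 CPM and to 872 against 380 and 243 CPM, and B-lymphoid markers to 164 and 172 against 52.8 CPM and to 169 against 58.6 and 39.9 CPM, above wild type in both kinds of file. Neutrophil and monocyte markers, 1 of 10 called and higher, went in opposite directions, with 4579 and 2519 against 8293 CPM and 6713 against 2562 and 5033 CPM. The LSK gate genes, 1 of 7 called and higher, summed to 1493 and 1220 against 1206 CPM and to 1151 against 1213 and 1081 CPM. The sum hides Ly6a, the gene of Sca-1, named after its values were seen. Its log2 fold change was -1.34 (SE 0.562, edgeR adjusted p = 0.187). It was at 52.6 and 57.6 against 260 CPM and at 69.1 against 40.5 and 148 CPM, so wild-type libraries differed widely. Of the 7 gate genes, 2 were below 0. Of the T and NK (6 tested), cell cycle (12) and striated muscle (3) genes, edgeR called none; at an unadjusted p under 0.05, 2 cell cycle genes were lower and 1 muscle gene was higher. Cell cycle genes, with a median of -0.12 and 1 called lower by DESeq2, summed to 4975 and 5046 against 5200 CPM and to 5587 against 5256 and 5929 CPM. T and NK markers summed to 156 and 120 against 156 CPM and to 173 against 136 and 131 CPM, with none called by DESeq2. Muscle markers stayed between 2.01 and 3.49 CPM in every library, with 1 called higher by limma-voom. The part of these differences in the respiratory chain result was not tested.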

How the data were processed

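RNA was measured by poly(A)-selected, unstranded RNA sequencing of LSK cells. The deposited values were raw counts made by the authors on mm10 with RefSeq transcripts, 1 count per transcript in 3 libraries and 1 per exon in the other 3, without pooling; the submitters' processing notes name STAR, featureCounts and DESeq2. Each symbol was represented by its longest transcript, exon counts were summed, and samples were grouped by their titles. Counts passing filterByExpr were tested with edgeR 4.0.16 (R 4.3.3; glmQLFit and glmQLFTest, TMM) for file kind plus group, with 3 residual degrees of freedom, two-sided, Benjamini-Hochberg over all 14145 genes, threshold 0.05. SEs came from the fold change and F. CPM uses TMM-scaled totals, and log2 CPM a prior count of 2. Removing the file kind effect (limma 3.58.1) makes the SDs somewhat too small. Near-identical copies were sought with minimap2 2.31 (at least 80% of the coding sequence, 95% identity) in NCBIM37. The fit was tested on simulated data, where it recovered 1 of 48 genes changed by a fold of 1.25. It recovered 15 of 50 at a fold of 1.5 and 31 of 50 at a fold of 2, so few small changes would be called. Genes named were, per complex, the 3 smallest p-values and the highest level per kilobase, the isoform groups, members on X, called members and up to 3 genes per other mitochondrial list. The members, lists and most alternatives were chosen with earlier results of these data known. Alternatives were DESeq2 1.42.0, limma-voom, other scalings, filters and transcripts, the covariate, the replicate block, each kind of file, each library left out, and length and GC trends. The study used Cuffdiff on reads. Of the members, 1 enters the counts and medians but is not reported singly here. The design text and the study's methods name different sequencers.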

Additional observations from a re-analysis of the deposited data

How the results depend on the processing

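The members' median log2 fold change stayed below 0 in every alternative run, and Ndufv1 was lower in each. The median moved beyond the spread of the library medians (SD 0.106) in the gene-count files alone (-0.44) and the exon-count files alone (-0.14). The same held with the length trend removed (-0.15) and, narrowly, with the replicate block without the file kind (-0.40). Leaving out single libraries gave -0.42 (without Asxl2-/- replicate 2) to -0.14 (without wild-type replicate 2). Both of these ends also lay beyond that spread. The counts of calls moved more. Against 331 genes, DESeq2 called 2302, scaling by library size only 161, and leave-one-out fits 9 to 1312. Against 1 member, DESeq2 called 28 and leave-one-out fits 0 to 18, and 0 were called with library size only, no filter, no covariate for the file kind, the longest exon, the length trend removed or the GC trend removed; without Asxl2-/- replicate 2 the 1 call was Uqcr11. In the lists of assembly factors, electron carriers, Krebs cycle enzymes and regulators, with 0 called, DESeq2 called 21. Library size only moved the median of all genes by 0.10 and that of the members to -0.20, the same distance from it. Single genes near 0 turned sign: Ndufa4 to -0.13 without the file-kind covariate and -0.0518 without Asxl2-/- replicate 2 (leave-one-out range up to 0.160); Uqcrh to 0.0136, Ndufa1 to 0.0365 and Atp5g2 to 0.10 with the length trend removed; Atp5g2 to 0.0321 with library size only and 0.0022 with the GC trend removed; Ndufa1 to 0.0480 (range from -0.326) and Cox6b2 to -0.149 (range up to 0.644) without wild-type replicate 2; Cox6b2 to -0.01 without Asxl2-/- replicate 3; and Cox6a2 to 0.0285 (range from -0.789) without wild-type replicate 1. The cause of these changes was not tested. Of the values for single named genes, 746 kept direction and side of the threshold or their size, 75 came to pass it, 12 no longer did, 52 moved and 12 turned sign.

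Groups share replicate numbers. The deviations of same-numbered libraries from their group means correlated across genes at 0.29, -0.01 and -0.003. The 2 libraries of each number came from different kinds of file, and with the file kind removed the values were 0.64, 1 and 0.39. That 1 is fixed by the design, which gives independent libraries 0.14 for numbers 1 and 3, so number 2 cannot be judged after the removal. With the file kind removed, the libraries of numbers 1 and 3 correlated best with their own number. The design itself gives their pairs with number 2 a value of -0.378. Before the removal, only the libraries of number 1 correlated best with their own number. These are hints from the data, the labels state no pairing, and the numbers were not taken as pairs. With that number added to the fit as a replicate block, the file kind included, 5179 of 14145 genes were called, 2412 of them lower (17.1% of all genes). Among them were 49 members and 51 mitochondrial ribosomal proteins, all lower. That fit left fewer residual degrees of freedom than the 3 of the main fit. Only the difference between numbers 1 and 3 informed each gene's own error. The larger counts were therefore not read as a gain from pairing. In the 4 mitochondrial lists named above 33 genes were called, of which 1 gene of the Krebs cycle list and 2 regulators were higher. With the block without the file kind 0 members were called, their median was -0.40 and Ndufa4 was at -0.16.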
